A study of Mus musculus with 4 samples.

Results

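Peaks of an antibody-targeted nuclease assay were described at 9 mouse autophagy genes, Uvrag, Becn1, Atg5, Atg7, Atg12, Ulk1, Map1lc3b, Sqstm1 and Dram1, in 2 populations of medullary thymic epithelial cells. A peak was assigned to a gene when its summit lay inside the gene's RefSeq interval or within 5 kb of it. The 9 genes stand among 21631 protein-coding genes, and their windows held 204 of the peaks deposited for the 4 libraries. Uvrag was picked because it has a strong peak in every library, so the position, number and rank of its peaks are given as a description and were not tested. The other 8 genes were picked for their function, with earlier results of these data known.

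Autophagy encloses cytoplasm in a double membrane and delivers it to the lysosome. The ULK1 kinase starts the process, a lipid kinase complex built on Beclin 1 marks the membrane, and a pair of ubiquitin-like conjugation reactions then attaches LC3 to it. Thymic epithelium is known for high autophagy without starvation, which brings the cell's own proteins to MHC class II molecules for display to developing T cells. Several autophagy genes are known targets of p53 in cells under stress, among them DRAM1 in human cells.

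The 4 libraries comprised 2 of mTEChi and 2 of mTEClo, from thymi of mice aged 4 to 5 weeks, with 500000 cells per condition and the genotype Trp53-WT in every library. Epithelial cells were enriched by EpCAM with magnetic beads and stained for sorting. In common usage mTEChi are the mature cells with much surface MHC class II and mTEClo the less mature cells with little. The assay was CUT&RUN, in which a protein A-MNase fusion cuts DNA beside a bound antibody. Here p53 is the target in the sample titles, but the written protocol gives BAF155, a chromatin remodeller subunit, so the labels do not settle which protein these peaks belong to; no library with a control antibody was analysed here.

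The lists held 73510 and 85308 peaks in mTEChi replicates 1 and 2, against 89809 and 69359 in mTEClo replicates 1 and 2. Each peak carries the authors' score, the −log10 of its significance as p or q, which ranks peaks within its own list and is not a level that can be compared between lists. Ranks count from 1 at the highest score, ties take their mean rank, and the percentile of a peak is 100 for the top of its list. The lists give no read counts, so sequencing depth is unknown. As a check of the labels, 10 of 12 mTEC marker genes had a peak in all 4 libraries, while Ccl21a and Ccl19 had none in any. Over all protein-coding genes the share with a peak in all 4 libraries was 51.9%, and gene length was not matched. Of 8 thymocyte markers 4 had one in all 4 libraries, of 6 B cell and myeloid markers 1, and of 4 endothelial and fibroblast markers 3; peaks do not measure expression, so these counts do not identify cells. The thymocyte marker Cd8a (2 and 1 peaks) and the myeloid marker Itgax (2 and 2) had peaks in both mTEClo libraries and in neither mTEChi library. That pattern was seen in 2.14% of protein-coding genes. The summed peaks were 34 and 31 in mTEChi and 38 and 25 in mTEClo for mTEC markers, 8 and 16 against 13 and 12 for thymocyte markers, 2 and 9 against 6 and 6 for B cell and myeloid markers, and 11 and 10 against 20 and 9 for endothelial and fibroblast markers (replicates 1 and 2 each).

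The sequence upstream of 2 gene starts is shown because the summits of all 4 libraries fell inside it. A short stretch at Atg5 is shown too, for the E-box nearest to a shared peak within the promoter windows searched (described below). They are RefSeq sequences of GRCm38.p6, which has the coordinates of mm10, printed on the strand of the gene, and only the part outside the gene interval is given for Uvrag and Ulk1. The stretches are chr7:99141168-99141394 (minus strand) for Uvrag, chr5:110810121-110810331 (minus strand) for Ulk1 and chr10:44268313-44268342 (plus strand) for Atg5. Capitals mark CCAAT boxes (CCAAT), GC boxes (GGGCGG, or CCGCCC where the match is on the other strand) and, at Atg5, the E-box (CACGTG).
Uvrag: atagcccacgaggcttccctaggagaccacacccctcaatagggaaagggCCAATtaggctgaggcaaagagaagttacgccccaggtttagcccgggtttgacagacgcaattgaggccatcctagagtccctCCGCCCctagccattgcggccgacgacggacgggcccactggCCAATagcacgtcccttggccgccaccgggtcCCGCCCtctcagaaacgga
Ulk1: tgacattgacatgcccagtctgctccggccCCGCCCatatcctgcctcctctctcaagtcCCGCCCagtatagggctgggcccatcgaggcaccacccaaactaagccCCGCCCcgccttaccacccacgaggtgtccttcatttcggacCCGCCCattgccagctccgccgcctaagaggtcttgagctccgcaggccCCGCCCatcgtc
Atg5: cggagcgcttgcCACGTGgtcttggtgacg

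A RefSeq promoter window, 250 bp upstream to 50 bp downstream of a start, was matched for 7 of the 9 genes; Becn1 and Atg12 were not matched. A set of 8 motifs was searched on both strands. The GC box, read by Sp factors, lay in 6 of the 7 windows (Uvrag, Atg5, Ulk1, Map1lc3b, Sqstm1 and Dram1), against 35.9% of 32544 windows in the table. The CCAAT box, read by NF-Y, lay in those of Uvrag and Atg7, against 37.4%. The E-box CACGTG, read by TFEB and related factors that drive lysosome and autophagy genes, lay in those of Atg5 and Atg7, against 7.17%, and its longer form TCACGTG, which contains the E-box, in that of Atg7, against 3.79%. The Ets core CCGGAA (15.0% of all windows), the AP-1 site TGANTCA (7.79%), the NRF1 core GCATGCG (3.60%) and the p53 half-site (8.36%) were found in none of the 7 windows. A match describes the letters and not a bound factor.

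Uvrag, whose product activates the Beclin 1 lipid kinase complex, had the highest peak of the 9 genes in every library. The peak (chromosome 7, 99141195 to 99141508) had scores of 87.9 and 56.5 in mTEChi replicates 1 and 2, against 41.3 and 36.5 in mTEClo replicates 1 and 2. It ranked 22 and 11 in the mTEChi lists and 31 and 16 in the mTEClo lists, so the ranks of the states overlap. Its summits, at 99141345 and 99141347 in mTEChi and at 99141352 and 99141358 in mTEClo, lay within 13 bp of each other and outside the gene interval (98886742 to 99141167). Counted from the RefSeq start used for the promoter window, they stood at -201 and -203 bp in mTEChi and at -208 and -214 bp in mTEClo. The first CCAAT box of the printed Uvrag sequence has its centre 3 and 5 bp from the mTEChi summits and 10 and 16 bp from the mTEClo summits.

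A second, weaker peak of all 4 libraries lay farther upstream of Uvrag (chromosome 7, 99143300 to 99143696), with scores of 5.58 and 2.90 in mTEChi and 6.91 and 5.49 in mTEClo. Its summits were spread over 96 bp. The rest of the window, which spans 264426 bp, was less reproducible: of its 43 regions, made by merging peaks that share at least 1 bp, 38 held a peak of a single library. The highest of the inner peaks was that of mTEChi replicate 1 at 99042036 (score 12.4), which overlapped a peak of mTEClo replicate 1 at 99041947 (5.12). The window held 14 and 20 peaks in mTEChi, against 12 and 6 in mTEClo. Both mTEChi libraries therefore lay above both mTEClo libraries, a value that belongs to what Uvrag was chosen on.

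**Figure D1:**
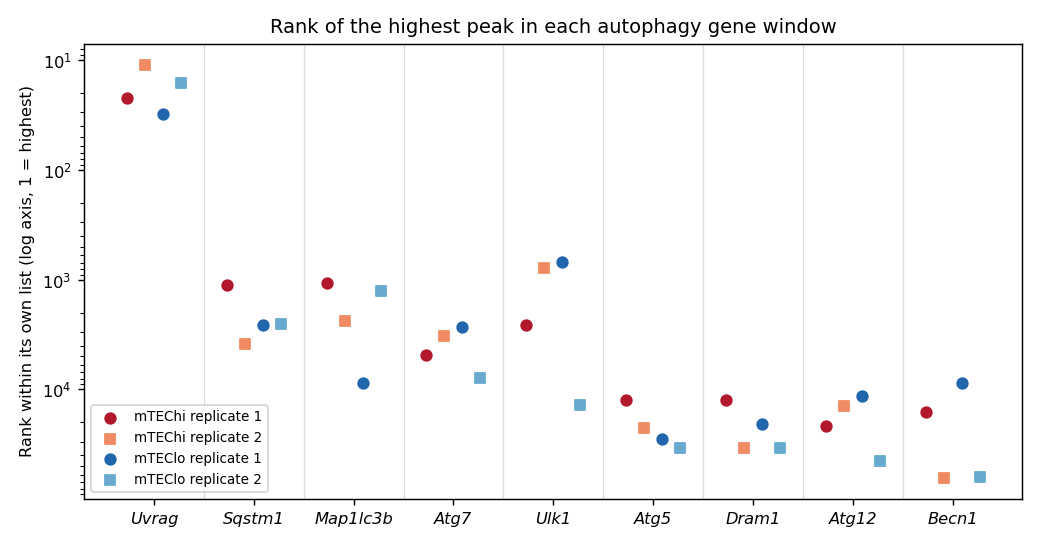
Rank of the highest peak in the window of each of the 9 genes (horizontal axis, ordered by the worst of the 4 percentiles) within its own list (vertical axis, log scale, rank 1 at the top), one point per library. Uvrag sits between ranks 11 and 31 in the 4 libraries, and the highest Becn1 peak falls between 8768.5 and 64468.

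Becn1, the gene of Beclin 1, the core of the lipid kinase complex, carried 1 peak in each library. In 3 libraries the peak sat at the upper end of the gene interval (chromosome 11, 101288258 to 101302286), in a region from 101301980 to 101302408. Scores there were 5.07 and 2.88 in mTEChi replicates 1 and 2 and 7.39 in mTEClo replicate 1, at 108, 28 and 156 bp from the end. The peak of mTEClo replicate 2 was elsewhere, 4620 bp below the lower end, with a score of 2.62. Percentiles of these peaks ran over 78.1 and 24.4 in mTEChi and 90.2 and 9.77 in mTEClo, so the libraries of one state differed more than the states.

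Ulk1, the gene of the kinase that starts autophagy, had peaks of all 4 libraries at its start and again inside the gene. The start region (chromosome 5, 110810015 to 110810380) had scores of 12.1 and 12.9 in mTEChi replicates 1 and 2, against 17.1 and 5.19 in mTEClo replicates 1 and 2. The corresponding ranks were 2585.5 and 777.5 in mTEChi and 697.5 and 13851.5 in mTEClo, so mTEClo replicate 2 stood apart from the other 3 libraries. Summits stood at -115 and -149 bp from the RefSeq start in mTEChi and at -84 and -129 bp in mTEClo, inside the printed sequence and between its GC boxes, of which it holds 5. The nearest GC box had its centre 17.5 and 9.5 bp from the mTEChi summits and 13.5 and 10.5 bp from the mTEClo summits. Downstream, a region inside the gene (110808042 to 110808503) had scores of 4.29 and 4.05 in mTEChi and 8.17 and 4.01 in mTEClo, at 1798 and 1889 bp and at 1783 and 1728 bp from the start. The window held 6 and 2 peaks in mTEChi and 2 and 3 in mTEClo.

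**Figure D2:**
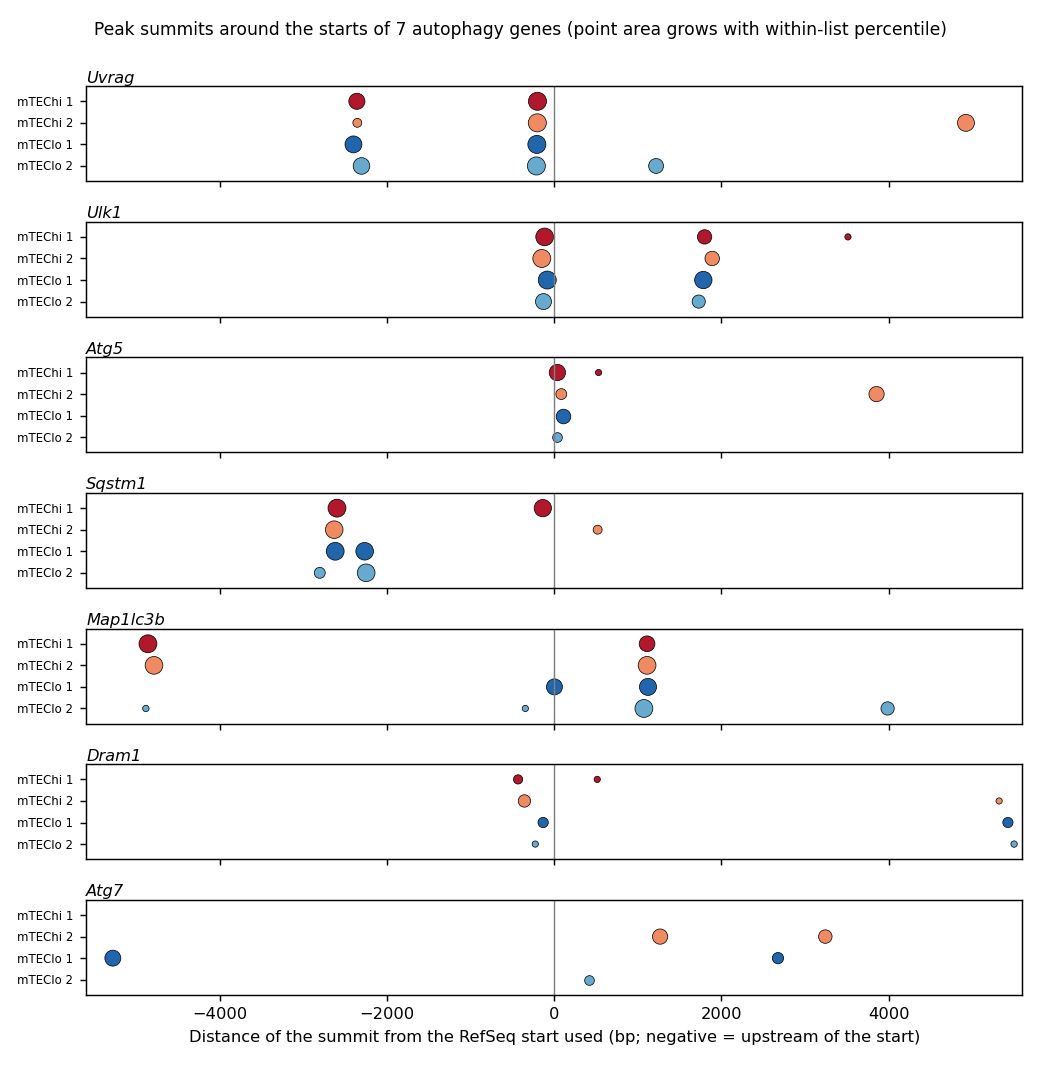
Summits within 5500 bp of the RefSeq start of the 7 genes with a promoter window (horizontal axis, bp, negative upstream), one row per library, with point area growing with the percentile within the list; peaks outside a gene's 5 kb window are not drawn. Summits of the 4 libraries line up upstream of Uvrag and Ulk1, just downstream of the Atg5 start and about 1.1 kb inside Map1lc3b.

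The conjugation genes differed in where their peaks lay. ATG7 is the E1-like enzyme of both conjugation reactions, and ATG5 and ATG12 form the conjugate that directs LC3 to the membrane. Atg5 had 1 region of all 4 libraries at its start (chromosome 10, 44268224 to 44268597), with scores of 5.59 and 3.34 in mTEChi and 5.12 and 3.48 in mTEClo. Summits stood at 37 and 84 bp from the RefSeq start in mTEChi and at 108 and 35 bp in mTEClo. The centre of the E-box in the printed Atg5 stretch lay 48.5 and 95.5 bp from the mTEChi summits and 119.5 and 46.5 bp from the mTEClo summits, upstream of each. An end of Gm40637, a long noncoding RNA gene, lies within 1 kb of that region. The Atg5 window held 3 and 2 peaks in mTEChi and 8 and 3 in mTEClo.

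Atg7 had many peaks and no region common to the 4 libraries. Its window of 227478 bp held 13 and 19 peaks in mTEChi, against 26 and 13 in mTEClo, in 52 regions, of which 5 held peaks of 3 libraries and 38 of 1. The one with the closest summits, inside the gene (chromosome 6, 114781669 to 114782022), had a score of 5.00 in mTEChi replicate 1 and of 10.9 and 6.004 in mTEClo replicates 1 and 2, with summits within 53 bp; mTEChi replicate 2 had no peak there. Another of the 5 lay above the upper end of Atg7 (114861118 to 114861531) and inside the neighbouring gene Vgll4, so it cannot be assigned to either gene. The Atg7 promoter window, which lies inside the gene interval since other transcripts begin farther upstream, held no summit of any library.

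Atg12 had a region of all 4 libraries at its upper end (chromosome 18, 46741365 to 46741869), where the interval of Ap3s1, an adaptor protein subunit gene, begins, so the peak lies at both genes. Scores were 4.56 and 4.88 in mTEChi and 6.79 and 3.48 in mTEClo. Besides this peak each mTEChi library had 3 others in the window and the mTEClo libraries none, giving 4 and 4 peaks in mTEChi against 1 and 1 in mTEClo. The 6 further mTEChi peaks lay in 6 separate regions, each with a peak of 1 library. A peak of mTEClo replicate 1 with a score of 2.74 lay 5090 bp below the gene, just outside the window. In the two-sided exact permutation test over the 4 libraries the difference of 3 peaks had p = 0.333, which is the smallest p that 2 libraries against 2 can give, and p = 1 after Benjamini-Hochberg adjustment over 21631 genes. No gene could pass a threshold of 0.05 in this design: 0% of the 21631 genes were called, also at an unadjusted p under 0.05.

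Map1lc3b and Sqstm1 encode LC3B, the protein that decorates the membrane, and p62, a receptor that brings ubiquitin-marked cargo to LC3. Map1lc3b had a region of all 4 libraries inside the gene (chromosome 8, 121591360 to 121591709), with scores of 5.07 and 7.96 in mTEChi and 7.39 and 9.73 in mTEClo. The summits stood at 1110 bp from the RefSeq start in both mTEChi libraries and at 1121 and 1072 bp in mTEClo. A second one (121585287 to 121585800) lay at the outer limit of the window, with scores of 19.1 and 7.63 in mTEChi and 7.39 and 3.03 in mTEClo. At this limit the summits of mTEChi replicates 1 and 2 and mTEClo replicate 2 were 4860, 4788 and 4885 bp below the gene and counted, whereas that of mTEClo replicate 1, at 5001 bp, was 1 bp too far. A region above the upper end (121598957 to 121599325) lay inside the neighbouring gene Zcchc14. It had peaks in both mTEClo libraries (5.12 and 6.86) and in neither mTEChi library. Close to the Map1lc3b start, mTEClo replicate 1 had a peak at 2 bp (5.93) and mTEClo replicate 2 at -346 bp (2.77). Within 1 kb of the start the mTEChi libraries had none. The window held 2 and 3 peaks in mTEChi and 4 and 5 in mTEClo, with p = 0.333 in the exact permutation test, again the smallest possible, and an adjusted p of 1.

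Sqstm1 had its strongest peaks upstream of the gene (chromosome 11, 50200152 to 50210820), on the side where transcription starts. The region from 50213269 to 50213775 was common to the 4 libraries, with scores of 18.5 and 6.72 in mTEChi and 11.3 and 3.60 in mTEClo. Its summits stood at -2599 and -2632 bp in mTEChi and at -2620 and -2805 bp in mTEClo. Next to it, a region from 50212920 to 50213238 had peaks in both mTEClo libraries (9.497 and 8.212, at -2268 and -2250 bp) and in neither mTEChi library. At the start itself only mTEChi replicate 1 had a peak, at -137 bp with a score of 8.25. A peak of mTEChi replicate 2 lay 519 bp downstream of the start (2.94), and the mTEClo libraries had none within 1 kb of it.

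Dram1, the gene of a lysosomal membrane protein that p53 induces in human cells, carried weak peaks at its RefSeq start. Its region at the RefSeq start used (chromosome 10, 88357058 to 88357658), which lies inside the gene interval, had scores of 3.19 and 3.63 in mTEChi and 4.02 and 2.62 in mTEClo. The median scores of the lists were 3.62 and 3.34 in mTEChi and 4.12 and 3.94 in mTEClo, so 3 of these 4 peaks lay below the middle of their list and that of mTEChi replicate 2 above it. The summits were spread over 300 bp, at -433 and -357 bp in mTEChi and at -133 and -227 bp in mTEClo, and the mTEChi pair stood farther upstream. Another region of all 4 libraries (88346099 to 88346548) lay deeper in the gene. Its scores were 2.77 and 3.83 in mTEChi and 5.66 and 3.94 in mTEClo. The percentiles there were 19.1 and 60.0 in mTEChi and 77.0 and 51.2 in mTEClo. The highest peak of mTEChi replicate 1 lay elsewhere in the window, 1586 bp above the upper end, with a score of 5.59 (percentile 83.1). Just outside the window lay peaks of mTEChi replicate 1 (score 3.62, 5249 bp above the gene) and of mTEClo replicates 1 and 2 (5.12 at 5055 bp and 7.15 at 5142 bp).

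**Figure D3:**
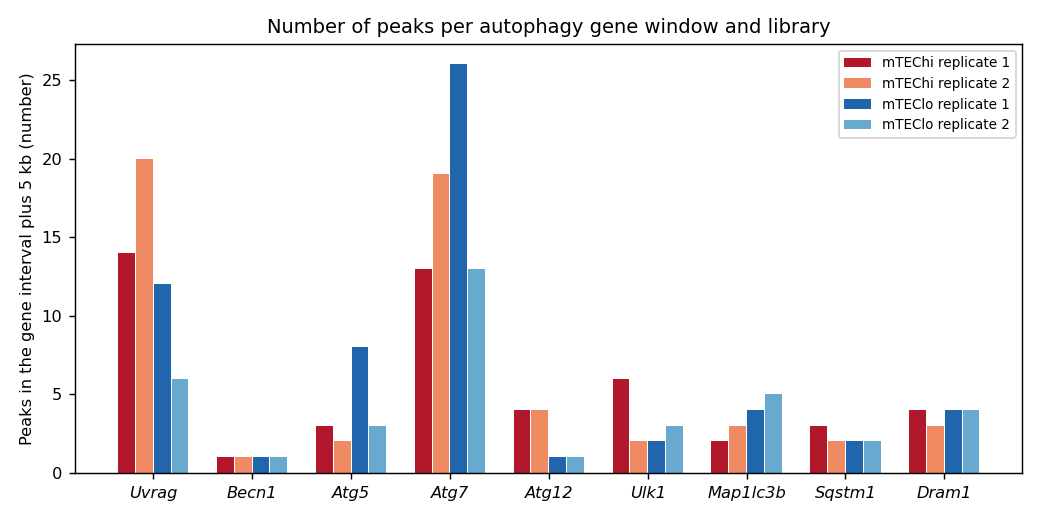
Number of peaks (vertical axis) in the window of each gene (interval plus 5 kb on each side), one bar per library. The long genes Uvrag and Atg7 hold 123 of the 204 peaks, and Atg12 shows 4 and 4 peaks in mTEChi against 1 and 1 in mTEClo.

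Each of the 9 genes had a peak in all 4 libraries, Uvrag by its choice, against 51.9% of protein-coding genes. Both mTEChi libraries had one in 61.2% of protein-coding genes and both mTEClo libraries in 63.1%. In single libraries the share was 69.3% and 73% in mTEChi and 75.5% and 68.8% in mTEClo. Longer genes have longer windows, and the share with a peak in all 4 libraries was 33.7% for gene intervals below 20 kb (where Becn1, Atg12, Map1lc3b and Sqstm1 belong), 67.2% from 20 to 100 kb (Atg5, Ulk1 and Dram1) and 91.6% from 100 kb (Uvrag and Atg7). Under the 10000 highest peaks of each list (and ties), Uvrag, Atg7, Map1lc3b and Sqstm1, 4 of the 9 genes, had a peak in all 4 libraries, against 12.2% of protein-coding genes; Uvrag is there by its choice. A single region shared by the 4 libraries was found in 7 of the 9 windows, the exceptions being Becn1 and Atg7, against 22.7% of protein-coding genes. Uvrag enters that count by its choice.

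The windows held 50 and 56 peaks in mTEChi and 60 and 38 in mTEClo. The mean was 53 ± 4.24 peaks in mTEChi and 49 ± 15.6 in mTEClo (SD, n = 2 each), and the difference of 4 peaks was smaller than the spread between replicates. It was -7 without mTEClo replicate 2 and 15 without mTEClo replicate 1. Uvrag was chosen partly on its number of peaks. The windows of the other genes held 36 and 36 peaks in mTEChi and 48 and 32 in mTEClo. Their mean was higher in mTEClo, so the direction of the difference over all 9 windows rests on Uvrag. Per 10 kb of the 9 windows there were 0.652 and 0.730 peaks in mTEChi and 0.782 and 0.495 in mTEClo. Over all protein-coding windows there were 0.391 and 0.452 in mTEChi and 0.490 and 0.373 in mTEClo. Uvrag and Atg12 had more peaks in both mTEChi libraries than in either mTEClo library, as did 8.4% of protein-coding genes, and Map1lc3b fewer, as did 9.27%. None of the 9 was limited to a single state; 1.67% of protein-coding genes had peaks in the mTEChi pair but not the mTEClo pair, and 2.14% the reverse.

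The highest peak of each gene had a higher mean percentile in mTEChi than in mTEClo in 9 of 9 members, against 53.6% of the 11228 genes with a peak in all 4 libraries; this count was added after seeing the data. Without mTEClo replicate 2 this held for 3 of 9, so the count rests on that library. The count and the median given next include Uvrag, which was chosen on the rank of its peak and differed by 0.007 points. The median difference over the 9 members was 3.68 percentile points, against 0.44 over those 11228 genes, and it was -1.44 without mTEClo replicate 2 and 17.8 without mTEClo replicate 1. The 2 states were separate at Atg5 alone, with percentiles of 83.1 and 73.8 in mTEChi and 68.6 and 51.2 in mTEClo. Such a separation with mTEChi above was seen in 20.7% of genes, and the opposite, with no member, in 17.4%. On these percentiles the exact permutation test gave Atg5 p = 0.333, the smallest possible, and an adjusted p of 0.874 over the 11228 genes. The highest peak was not at the same site in every library at Becn1, Atg5, Atg7, Map1lc3b, Sqstm1 and Dram1. For Atg5 its summits were 44268376 and 44272194 in mTEChi and 44268447 and 44286144 in mTEClo. In the Atg5 region of all 4 libraries the percentiles were 83.1 and 42.2 in mTEChi and 68.6 and 35.4 in mTEClo. There the states overlap. The directions of the percentile differences depend on the window. With 25 kb on each side the difference was -19.3 points at Atg5, -17.59 at Becn1 and -13.0 at Dram1, leaving 6 of 9 higher in mTEChi. In the bare gene interval it was -8.40 at Ulk1, -6.52 at Map1lc3b and -17.56 at Dram1. At Becn1 it ran from -39.0 to 41.5 when single libraries were left out, and it was -1.12 when ties took their worst rank.

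Merging gave 141 regions in the 9 windows, of which 11 (7.80%) held a peak of all 4 libraries, 7 of 3, 17 of 2 and 106 (75.2%) of 1. Over all protein-coding windows 2.84% of 149174 regions were common to the 4 libraries and 82.6% belonged to 1. Without Uvrag there were 98 regions, with 9 (9.18%) in all 4 libraries. Of the 11, the 4 at Uvrag, Ulk1, Atg5 and Atg12 had a protein-coding gene end no farther than 1 kb away (36.4%), against 61.6% of such regions over all windows. State-specific regions were at the background: 2 (1.42%) were in both mTEChi libraries alone, against 2.04% over all windows, and 4 (2.84%) in both mTEClo libraries alone, against 3.04%. The 2 of mTEChi lay inside Atg7 (114656822 to 114657419 and 114790088 to 114790436), and the 4 of mTEClo at Atg5, Atg7, Map1lc3b and Sqstm1.

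**Figure D4:**
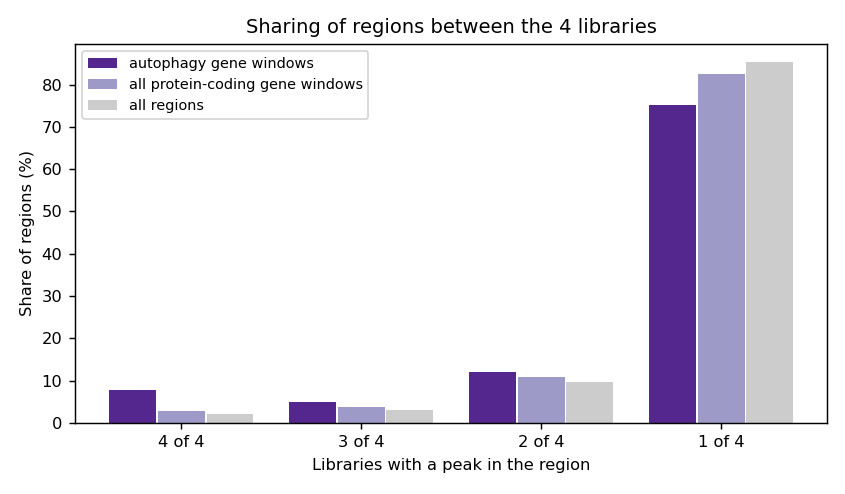
Share of merged regions (vertical axis, %) that held a peak of 4, 3, 2 or 1 of the 4 libraries (horizontal axis), for the 9 autophagy gene windows, all protein-coding windows and all regions. Regions of all 4 libraries make up 7.80% of the autophagy windows and 2.84% of all gene windows.

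A list of 68 further autophagy genes, ordered by role, was called often as well. Of the 68 genes, 55 (80.9%) had a peak in all 4 libraries, 61 in both mTEChi libraries and 59 in both mTEClo libraries. A single shared region lay in 31 windows (45.6%). Both shares were given for all protein-coding genes above, 51.9% and 22.7%. With the libraries of a state taken as a pair, 0 of the 68 had peaks throughout 1 pair and none in the other. The shares of protein-coding genes were 1.67% for the mTEChi pair and 2.14% for the mTEClo pair. Lamp2 had a peak in mTEChi replicate 1 alone, so it did not count. By class, the partners of the lipid kinase complex (7 of 7), the membrane supply genes (10 of 10) and the LC3 relatives (4 of 4) had a peak in all 4 libraries in every case, the other initiation genes (Ulk2, Rb1cc1, Atg13 and Atg101) in 2 of 4 and the lysosome genes and their regulators in 4 of 8. The remaining classes stood at 6 of 8 for the conjugation machinery, 8 of 10 for cargo receptors, 7 of 9 for fusion with the lysosome and 7 of 8 for p53-linked stress regulators. Differences between classes were not tested, and gene length, which moves this share, was not matched.

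The highest shared peaks of that list were at Wipi1, Nbr1, Gabarap, Ddit4, Atg2a, Epg5, Tmem41b, Retreg1, Atg4d and Gabarapl2, ordered by their worst rank. Wipi1, which reads the lipid made by the kinase complex, had scores of 21.9 and 22.7 in mTEChi and 17.7 and 11.7 in mTEClo, with ranks of 790 and 214 against 614.5 and 712. Nbr1, a cargo receptor gene, had 19.7 and 13.5 in mTEChi and 17.5 and 12.3 in mTEClo; its peak also lies at Brca1. Gabarap, an LC3 relative, had 15.9 and 10.3 in mTEChi and 22.7 and 13.3 in mTEClo, at a place shared with Phf23. Ddit4, an inhibitor of mTOR signalling, had 18.7 and 13.2 in mTEChi and 12.7 and 15.0 in mTEClo. Epg5, which tethers autophagosomes to lysosomes, had 13.1 and 8.63 in mTEChi and 20.6 and 6.57 in mTEClo. For the 10 genes the worst rank ran from 790 at Wipi1 to 13915 at Gabarapl2.

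**Figure D5:**
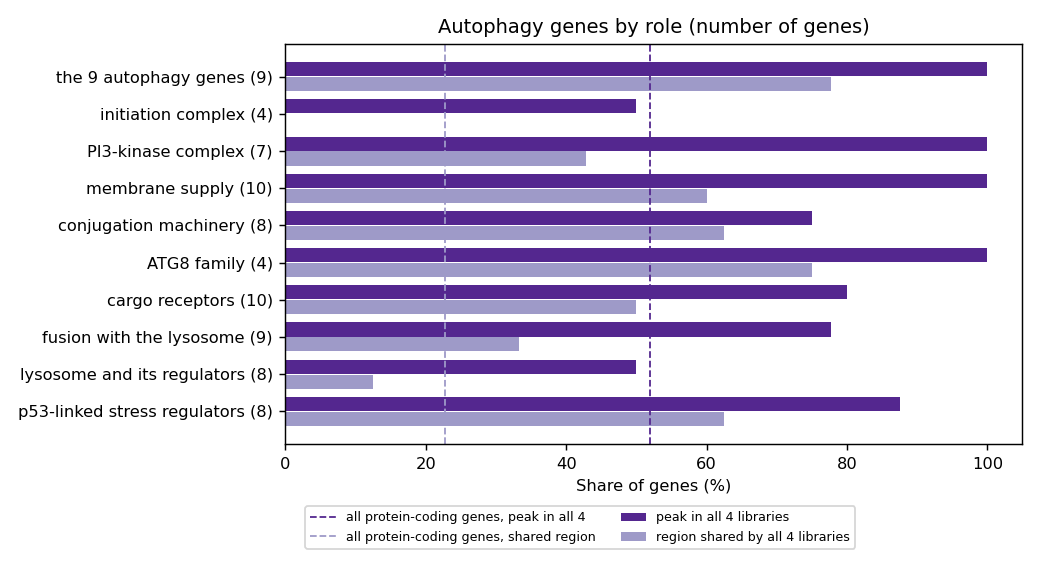
Share of genes (horizontal axis, %) with a peak in all 4 libraries (dark bars) and with a region shared by all 4 libraries (light bars), for the 9 autophagy genes and 9 classes of further autophagy genes, with the number of genes in brackets. Dashed lines give the shares of all protein-coding genes, 51.9% and 22.7%.

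The genes most like Uvrag were sought by the summed absolute difference in log10 rank of the highest peak over the 4 libraries. The closest were Khsrp and Slc25a41, which share a peak ranked 29 and 14 in mTEChi and 25 and 19 in mTEClo (summed difference 0.39). Zbtb20 followed, with ranks of 9 and 23 in mTEChi and 37 and 11 in mTEClo (0.95). Ager, Rnf5 and Agpat1 tied behind it on 1 common peak, ranked 7 and 17 in mTEChi and 20 and 24 in mTEClo (1.05). The likeness concerns ranks in 4 libraries only.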

How the data were processed

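The authors deposited 1 peak list per library for mTEChi and mTEClo, 2 libraries each, with fixed intervals of 150 bp on each side of a summit. MACS2 2.2.7.1, Bowtie2 2.2.9, SAMtools 1.9, Picard and the build mm10 are listed in the submitters' processing notes, without roles; their settings, and any control, are not given in the sources. Replicates were not pooled. The deposited score is −log10 of either p or q (not stated which), with a minimum near 2.00 in each list; the 4 most frequent scores covered 38.7% to 51.1% of a list, so ranks hold many ties.

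Summits were counted in RefSeq gene intervals (GRCm38.p6) with 5 kb on each side, for 21631 protein-coding genes, and peaks sharing at least 1 bp were merged into regions. The gene table has no strand or exons; strand and start came from the RefSeq promoter table, so exon or intron was not assigned. Per gene, peak numbers and the percentile of the highest peak entered a two-sided exact permutation test over libraries, with Benjamini-Hochberg adjustment over all genes with a value; Uvrag was not tested. The 9 genes, the further lists and the tests were chosen with earlier results of these data known. Named were the 9 genes and up to 10 listed genes by worst rank of a region in all 4 libraries. Listed genes with peaks throughout the pair of 1 state and none in the other pair were named too. The same held for the 5 genes most like Uvrag (with ties) and neighbours at a described peak. Alternatives changed the window, the peaks used, the merging, the ranking of ties, the libraries and the replicate block. In lists shortened to a set length, peaks tied with the last were kept. Nothing in the labels ties a replicate to its own mice. The p-values therefore set the grouping by state only against other divisions of the 4 libraries, whose spread may be technical. The counting and merging were tested on simulated lists. Software was pandas 2.3.3, numpy 2.4.6 and matplotlib 3.10.9 under Python 3.11.15.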

Additional observations from a re-analysis of the deposited data

How the results depend on the processing

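Of 109 values of the summary results under the alternatives, 78 stayed within 1.5 times of the reported count or within the spread between replicates. For the difference in peaks this spread was an SD of 11.4, so a change from 4 to -7 counted as staying. Both block values are among the 78 and equal the reported difference by arithmetic. Cutting the lists had the largest effect on counts of genes: with the 10000 highest peaks, 5 of the 9 genes had a peak in both mTEChi libraries, 4 in both mTEClo libraries and 4 in all 4, and with the peaks above each median 5 had one in both mTEClo libraries and 5 in all 4. Within 1 kb of gene ends 4 of the 9 had one in all 4 libraries. Of the 68 further genes this held for 31 in the bare gene interval, 31 near gene ends and 13 with the 10000 highest peaks. Shared regions numbered 6 in the bare interval, 4 near gene ends, 4 above the median, 6 with summits within 75 bp and 1 with the 10000 highest peaks. Regions of both mTEChi libraries alone numbered 4 with 25 kb, 0 near gene ends, 1 above the median, 1 with summits within 75 bp and 0 with the 10000 highest peaks. Those of both mTEClo libraries alone numbered 2 in the bare interval, 1 near gene ends and 2 with the 10000 highest peaks. In the bare interval 4 genes had a higher mean percentile in mTEChi, where 7 of 9 had a peak in every library; this count and its alternatives were added after seeing the data.

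Leaving out each library in turn gave 9 genes in all libraries throughout, Uvrag among them by its choice. Shared regions numbered 11 to 14, and the further genes with a peak in all libraries 56 to 60. The difference in peaks ran from -7 to 15 and the median percentile difference from -1.44 to 17.8. State-specific regions ranged from 2 to 34 for mTEChi and from 6 to 34 for mTEClo, since 1 list then suffices, and genes with the higher percentile in mTEChi from 3 to 8.

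With the replicate number as a block, the difference in peaks was 4, from pairs of -10 and 18. Deviations of same-numbered libraries correlated at -0.14 over 21631 genes (-0.04 per 1000 peaks of the list). The labels do not say what the numbers share, and 2 pairs are too few to show it, so the libraries were not treated as pairs. A crossed block was added after seeing the data; with either block no gene can be called at this number of libraries, so no test per gene was run with them. Percentile differences were not run for shortened lists, summit merging, gene ends or 1 kb flanks, and the cause of the changes listed here was not tested. Depth is unknown, so what a missing peak means cannot be set by it.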
